A study of Mus musculus with 13 samples.

Results

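The genes described here are 10 cytokines and receptors of the interleukin-1 (IL-1) family, of the 32285 genes listed in the count matrices. They were taken by symbol, and all 10 were listed: the ligands Il1a, Il1b, Il1f9, Il18 and Il33, the antagonist Il1rn, the receptors Il1r1 and Il1rl1, the accessory chain Il1rap and the decoy receptor Il1r2. Levels were read in 13 single-cell RNA-seq libraries of C57BL/6J mice, 10 from colon tumors and 3 from adjacent mucosa. All 3 animals were ApcMin/+; p16cis/cis on a supplemented diet, that is, they carried an Apc mutation that gives rise to intestinal tumors and an engineered epimutation that silences p16, and were fed extra folate and cofactors, so no library here comes from another genotype or diet. Animal A (24 weeks old) gave tumors 5 to 8 and mucosa 2, animal B (23 weeks) gave tumors 9 and 10 and mucosa 3, and animal C (20 weeks) gave tumors 1 to 4 and mucosa 1.

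Mucosa was dissociated with EDTA and a trypsin-like enzyme and tumors with an enzymatic tumor kit, so tissue and dissociation cannot be told apart. Tumor libraries held 57221300 to 93157039 unique molecular identifiers (UMIs, each a counted RNA molecule) and mucosa libraries 84883382 to 116133079. After filtering, 85953 tumor and 22542 mucosa cells remained, and libraries shared 14 to 61 cell barcodes per pair. In 7 libraries labelled female (5 tumors and 2 mucosa) Y-linked transcripts were found, against the label. All 13 libraries held 6207 to 10205 UMIs of 4 Y-linked genes and 1 to 8 UMIs of Xist. The labels also differed between libraries of animal A and of animal C. Leaving out the 7 keeps only mucosa 2 of the mucosa and does not compare the sexes. No comparison below uses sex, and values without these 7 libraries are given where they change a call.

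As background, IL-1α (Il1a) and IL-1β (Il1b) bind the receptor IL-1R1, which recruits the accessory chain IL-1RAcP (Il1rap) and signals through MyD88 to NF-kB, raising chemokines, prostaglandin synthesis and other inflammatory genes. The receptor antagonist (Il1rn) occupies IL-1R1 without signalling, and IL-1R2 (Il1r2) binds the ligands without signalling, as a decoy. IL-1RAcP also serves ST2 (Il1rl1), the receptor of the alarmin IL-33, and the receptor of IL-36γ (Il1f9), whereas IL-18 has receptor chains of its own. IL-1β and IL-18 are made as precursors that caspase-1 cleaves in inflammasomes, and myeloid cells are the textbook source of IL-1β, barrier epithelium that of IL-18 and IL-33.

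The members are spread over 5 chromosomes of the mm10 genome build. The receptor genes Il1r2 (chr1:40074079-40125231), Il1r1 (chr1:40225080-40317257) and Il1rl1 (chr1:40429570-40465415) lie on the plus strand within 391 kb. On chromosome 2 are Il1f9 (chr2:24186476-24193568) and Il1rn (chr2:24336853-24351494), both on the plus strand, and Il1a (chr2:129299610-129309972) and Il1b (chr2:129364570-129371139), both on the minus strand. Il18 (chr9:50554827-50581840), Il1rap (chr16:26581704-26730117) and Il33 (chr19:29925114-29960718) stand alone, each on the plus strand. These are whole-gene spans, and the counting read the 3′ ends of transcripts, so it does not tell start sites or isoforms apart.

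Of these genes, the ligands and the antagonist that differed most between tumor and mucosa are shown by the 150 bases before an annotated start, 5′ to 3′ on the gene's strand, from RefSeq on GRCm38.p6. Capitals mark matches to the letters GGGNNNNNCC (NF-kB), TGANTCA (AP-1) and TTGCNNAA (C/EBP) on either strand and TATAAA on the gene's strand, and no matches overlap in the windows shown.
Il1a, chr2:129309973-129310122, minus strand: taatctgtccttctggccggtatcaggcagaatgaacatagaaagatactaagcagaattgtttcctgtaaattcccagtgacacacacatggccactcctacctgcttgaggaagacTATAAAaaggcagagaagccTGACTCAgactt
Il1b, chr2:129371140-129371289, minus strand: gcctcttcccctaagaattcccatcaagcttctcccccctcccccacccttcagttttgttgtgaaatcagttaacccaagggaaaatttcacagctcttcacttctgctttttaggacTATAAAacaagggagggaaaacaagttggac
Il1f9, chr2:24186326-24186475, plus strand: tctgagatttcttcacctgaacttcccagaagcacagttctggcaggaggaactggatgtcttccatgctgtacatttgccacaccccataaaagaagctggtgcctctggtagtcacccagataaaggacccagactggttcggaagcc
Il1rn, upstream start, chr2:24336710-24336859, plus strand: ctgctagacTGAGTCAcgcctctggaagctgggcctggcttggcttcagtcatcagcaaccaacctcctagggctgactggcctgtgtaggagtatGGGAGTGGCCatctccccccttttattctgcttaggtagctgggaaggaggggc
Il1rn, downstream start, chr2:24345221-24345370, plus strand: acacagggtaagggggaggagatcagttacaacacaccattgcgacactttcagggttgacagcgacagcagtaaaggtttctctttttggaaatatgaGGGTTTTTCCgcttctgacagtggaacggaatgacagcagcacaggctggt
Il33, downstream start, chr19:29945640-29945789, plus strand: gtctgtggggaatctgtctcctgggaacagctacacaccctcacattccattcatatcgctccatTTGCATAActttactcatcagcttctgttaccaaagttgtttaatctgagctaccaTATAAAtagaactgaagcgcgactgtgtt

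In these windows a TATAAA match lay 32 bases before the start of Il1a, 31 before that of Il1b and 29 before the downstream start of Il33, and 4.84% of 32851 promoter windows of the same length held one. An AP-1 match lay 12 bases before the start of Il1a and 141 before the upstream start of Il1rn (4.24% of windows). NF-kB letters were found 54 and 51 bases before the upstream and downstream starts of Il1rn and are common (35.4% of windows). The C/EBP letters (5.46% of windows) lay 85 bases before the downstream start of Il33. Among windows not shown, C/EBP letters lay 133 bases before a start of Il1r1 and 34 before a start of Il1rl1. NF-kB letters lay 119 and 118 bases before the start of Il1rap. The windows of Il1f9, Il18 and Il1r2, of a further start of Il1rn, Il1r1 and Il1rl1 and of the upstream start of Il33 held none of these letters. A match is a description of the letters only.

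Summed over all cells of a library, transcripts of the IL-1 ligands, the antagonist, the decoy receptor and the accessory chain were far higher in tumors than in mucosa. Il1r1 was lower. These are levels in dissociated cells and not in intact tissue. Cells named neutrophil-like below made up 31.3% of tumor and 0.195% of mucosa cells. UMIs of all cells were summed per library, expressed in CPM, the UMIs of a gene scaled to a common library total, and tested with edgeR across all genes. Of the 10 members, 8 were higher in tumors and 1 was lower at an adjusted p under 0.05, where 36.3% of the 17428 genes tested were higher and 33.9% lower. The median log2 fold change was 5.17 over the members and 0.03 over all genes. The groups did not overlap for 9 of the 10 members, as for 52.9% of all genes. In sums over all cells, fewer cells of a type and less RNA per cell cannot be told apart, and all 8 neutrophil transcripts of a marker list were higher too, summing to 17499 to 33529 CPM in tumors against 27.2 to 202 CPM in mucosa. All 15 dissociation stress genes of a second list were higher as well (3708 to 6625 CPM against 1062 to 1142 CPM), and the part of either list in the members' values was not tested.

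Il1b was the agonist with the deepest counts, 1559085 UMIs over the tumors and 985 over the mucosa. Its level was 1578 CPM in the lowest tumor, 2305 at the median and 3124 in the highest, against 2.60, 6.24 and 3.53 CPM in mucosa 1, 2 and 3. Every tumor lay far above every mucosa library. The log2 fold change was 9.18 ± 0.47 (SE, edgeR adjusted p = 4.87e-09), and tumor means were 373 to 867 times the mucosa of the same animal.

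Il1a, the second agonist, ranged from 46.7 to 191 CPM in tumors (median 128), against 0.0557, 0.0511 and 0.0797 CPM in mucosa. Only 15 UMIs were counted in all mucosa, so its mucosa level is near the limit of counting. The log2 fold change was 10.97 ± 0.66. Il1f9, which encodes IL-36γ, ranged from 23.6 to 106 CPM (median 62.5) against 0.0278, 0.128 and 0 CPM, and its log2 fold change of 10.22 ± 0.91 rests on 12 mucosa UMIs, 10 of them in mucosa 2. It was 12.10 without mucosa 2 and 9.59 without mucosa 3, and stayed called. Tumors and mucosa were far apart for both genes.

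Il1rn, the antagonist, was also higher, by less on the log2 scale. It ranged from 98.3 to 278 CPM in tumors (median 202) and was 13.3, 11.9 and 8.43 CPM in mucosa. The log2 fold change was 4.18 ± 0.34 (edgeR adjusted p = 1.95e-07), or 13.2 to 28.8 times within animals. Il1rn was well counted in mucosa, with 2627 UMIs.

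The alarmins differed from each other. Il33 ranged from 4.77 to 8.83 CPM in tumors (median 7.02) against 0.0557, 0.230 and 0.0797 CPM, a log2 fold change of 5.76 ± 0.40 with no overlap (6.59 without mucosa 2). Il18 ranged from 29.1 to 69.9 CPM (median 44.7) against 29.7, 50.1 and 45.9 CPM. All 3 mucosa values of Il18 lay within the tumor range, and its log2 fold change of 0.20 ± 0.26 did not pass the test (edgeR adjusted p = 0.502).

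Among the receptors, Il1r2, the decoy, ranged from 90.5 to 242 CPM in tumors (median 169) against 0.654, 0.690 and 0.239 CPM (log2 fold change 8.29 ± 0.46). Il1rap ranged from 31.5 to 73.4 CPM (median 48.2) against 2.56, 1.71 and 2.06 CPM (4.58 ± 0.34). Il1rl1 was sparse, from 1.12 to 2.65 CPM (median 1.68) against 0.209, 0.0128 and 0.0456 CPM (4.31 ± 0.59). Of its 20 mucosa UMIs 15 were in mucosa 1, without which the value was 5.75, still called. All 3 were higher in every tumor than in every mucosa library.

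Il1r1, the signalling receptor of IL-1α and IL-1β, went the other way. It ranged from 2.96 to 5.16 CPM in tumors (median 4.49) and was 10.2, 6.80 and 6.93 CPM in mucosa, so every tumor lay below every mucosa library. The log2 fold change was -0.91 ± 0.17 (edgeR adjusted p = 2.87e-04), and tumor means were 0.403 to 0.658 of the mucosa of the same animal. Without the 7 libraries that go against their sex label the value was -0.82 and the call was lost (adjusted p = 0.0532), with 1 mucosa library left.

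**Figure D1:**
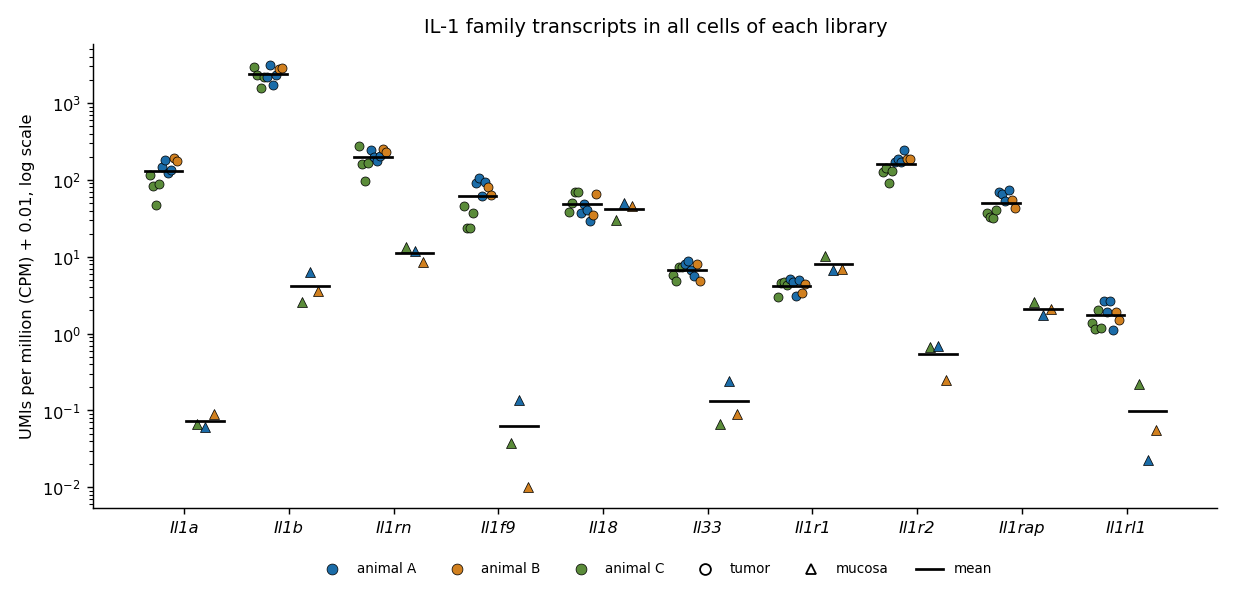
Level of each member in the sum of all cells of a library, in CPM plus 0.01 on a log axis; circles are the 10 tumors, triangles the 3 mucosa libraries, colors the 3 animals and bars the means. Tumors stand above mucosa for 8 members, lie below it for Il1r1 and mix with it for Il18.

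To find which cells held each transcript, cells were clustered with the members and the pathway genes held out, and clusters were named from marker lists. Levels were then compared among the 18 cell classes with at least 20 cells in at least 5 tumors. In the order of classes by mean level, the highest class was tested against the next with an exact sign-flip permutation test over tumors, adjusted over the 10 members. The order was set on the same tumors, and signs were flipped for each tumor although the tumors come from 3 animals. These p-values thus measure the spread between tumors and not between animals. For 8 of the 10 members the highest class stood apart from the next, and for Il1b and Il18 it did not. The test was run on the members only, so no share over all genes stands beside this count. It is therefore no result about the members as a set. With at least 50 cells per class the count was 7, since Il33 was left with 5 tumors (exact permutation p = 0.0625, the smallest possible), and the highest class of Il1r1 was then regulatory T and T cell-like.

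Il1b was led by a pair of myeloid classes. In Spp1+ macrophage-like cells it ranged from 9350 to 12160 CPM over the 10 tumors (median 10185), and in neutrophil-like cells from 6786 to 12500 CPM (median 10019). The ranges overlapped, and macrophage-like cells were higher in 5 of 10 tumors (log2 difference 0.12 ± 0.32, SD; exact permutation adjusted p = 0.256). Ly6c+ monocyte-like cells came next at 4392 ± 690 CPM (SD, n = 10), below neutrophil-like cells in all 10 tumors. Per cell, Spp1+ macrophage-like cells carried 55.6 Il1b UMIs and neutrophil-like cells, which hold fewer UMIs of all genes, 27.4.

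After each cell was thinned to 1000 UMIs, 94.9% of neutrophil-like and 90.4% of Spp1+ macrophage-like cells had an Il1b UMI. Plasma cell-like and B cell-like cells, which are not myeloid, had one in 1.51% and 5.37% (12.7% and 10.5% before thinning, at median depths of 16192 and 2229 UMIs). Tumor epithelial-like cells, at 2.52%, and regulatory T and T cell-like cells, at 3.63%, lay between these shares. The part of free RNA in the shares of these classes was not tested. In mucosa, the 44 neutrophil-like cells held 402 of the 985 Il1b UMIs and 33 Ly6c+ monocyte-like cells held 161. Neutrophil-like cells made up 31.3% of tumor and 0.195% of mucosa cells.

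Il1a was sharper than Il1b. It ranged from 671 to 1866 CPM in Spp1+ macrophage-like cells (median 1541) and from 132 to 304 CPM in neutrophil-like cells (median 194), and the classes did not overlap. The log2 difference was 2.67 ± 0.55 (SD), in 10 of 10 tumors (exact permutation adjusted p = 0.00326). Among Spp1+ macrophage-like clusters, cluster 7, led by Ccl24, Cxcl3 and Arg1, ranged from 715 to 2026 CPM of Il1a (mean 1425 ± 459, SD). Cluster 20, led by Ptgs2 and Inhba, ranged from 90.3 to 1829 CPM (mean 365 ± 518, SD). The clusters overlapped only through the highest tumor of cluster 20.

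Il1f9 was almost a neutrophil transcript. In neutrophil-like cells it ranged from 227 to 707 CPM (median 541) and in Spp1+ macrophage-like cells, the next class, from 1.80 to 21.7 CPM. Neutrophil-like cells were higher by 5.58 ± 0.55 (log2, SD), in 10 of 10 tumors (exact permutation adjusted p = 0.00326). Thinned shares of cells with an Il1f9 UMI were 32.3% in neutrophil-like cells, 1.03% in Spp1+ macrophage-like cells and 0.422% in B cell-like cells. The part of free RNA in the lower shares was not tested.

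Il1rn, Il1r2 and Il1rap, which limit or complete IL-1 signalling, were also highest in myeloid cells. Il1rn ranged from 859 to 1924 CPM in Spp1+ macrophage-like cells (median 1568) and from 313 to 694 CPM in neutrophil-like cells (median 382), a log2 difference of 1.83 ± 0.42 (SD) in 10 of 10 tumors. Absorptive-like epithelium followed Ly6c+ monocyte-like cells at 256 ± 88.1 CPM (n = 9), and these 2 classes did not differ beyond their spread (higher in 5 of 9 tumors). None of the other members led by a myeloid class had an epithelial class among its 4 highest.

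The decoy Il1r2 ranged from 746 to 1292 CPM in neutrophil-like cells (median 1054), with dendritic-like cells next at 188 to 347 CPM. Neutrophil-like cells were higher in 10 of 10 tumors, by 1.99 ± 0.28 (log2, SD). Regulatory T and T cell-like cells held 99.2 ± 33.0 CPM of Il1r2 and Il17a+ T-like cells 101 ± 46.5 CPM. Il1rap ranged from 269 to 482 CPM in neutrophil-like cells (median 373), against 22.9 to 40.8 CPM in Ly6c+ monocyte-like cells (log2 difference 3.56 ± 0.19, 10 of 10 tumors). For Il1r2 and Il1rap the neutrophil-like range lay wholly above the next class (exact permutation adjusted p = 0.00326 for each).

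Neutrophil-like cells were not uniform. They fell into cluster 1, led by G0s2 and Mrgpra2b, cluster 2, led by Ngp, Retnlg and Mmp8, and cluster 21, led by E230032D23Rik, Fnip2 and Ccrl2. No marker of the neutrophil list was among the 10 leading genes of cluster 21, and with finer clustering the cluster led by the same genes had no class name, so its place among neutrophil-like cells is less sure. Il1b was 11468, 7818 and 4750 CPM in clusters 1, 2 and 21, in that order in 10 of 10 tumors. Il1rn ran otherwise, at 475, 135 and 1341 CPM, with cluster 21 highest in 10 of 10 tumors.

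Il1a was low in cluster 2 (28.7 CPM) and higher in clusters 1 and 21 (312 and 322 CPM). Il1r2 (1173, 973 and 441 CPM) and Il1rap (418, 342 and 88.3 CPM) followed the order of Il1b, again in 10 of 10 tumors. Cluster 21 was highest of the 3 in the antagonist and lowest in the decoy receptor and accessory chain. Il1f9 varied less, at 560, 389 and 646 CPM.

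**Figure D2:**
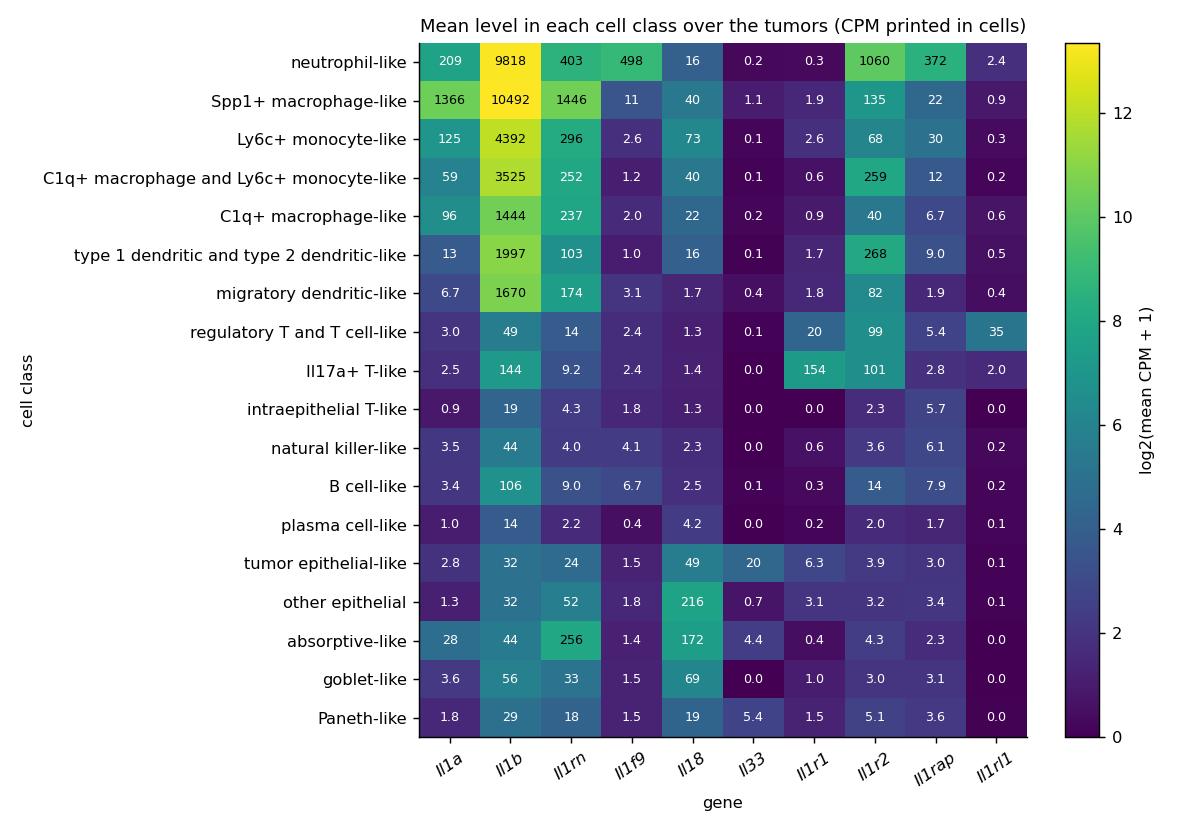
Mean CPM of each member (columns) in each of 18 cell classes (rows) over the tumors with at least 20 cells of the class; color is log2(mean CPM + 1) and the printed number is the mean. Il1b spreads over the myeloid classes, Il1f9 and Il1rap lie in neutrophil-like cells, Il18 and Il33 in epithelium, and Il1r1 and Il1rl1 in T-lineage classes.

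Il33 was led by tumor epithelium. In tumor epithelial-like cells it ranged from 14.7 to 34.5 CPM over the 10 tumors (median 18.5), and in Paneth-like cells, the next class, from 0.734 to 11.6 CPM (1.91 ± 0.74 on the log2 scale, SD; higher in 9 of 9 tumors, exact permutation adjusted p = 0.00558). Thinned shares of cells with an Il33 UMI were 1.54% in tumor epithelial-like cells and 0.00206% in plasma cell-like cells. At this depth few cells yield an Il33 UMI, so the share is no estimate of how many cells express it.

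Within tumor epithelium, Il33 was 15.3, 32.8 and 16.3 CPM in clusters 3, 12 and 13. Cluster 12, led by Krt17, Krt36, Tnfrsf11b and Cxcl5, was also the highest in Il1rn, at 56.1 CPM against 17.2 and 6.57 CPM. Cluster 13, led by Mt4 and Pnliprp2, was the highest in Il18 (84.1 CPM, against 25.4 and 60.7) and Il1r1 (12.8 CPM, against 4.94 and 3.30). The members thus had their highest levels in different tumor epithelial clusters.

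Il18 was led by epithelium outside the tumor epithelial class. It ranged from 113 to 379 CPM in the remaining epithelial clusters that matched no single class (median 216) and from 37.4 to 445 CPM in absorptive-like cells (median 142). These ranges overlapped, with 7 of 9 tumors in one direction (exact permutation adjusted p = 0.0738). With finer clustering the order turned, with absorptive-like cells at a mean of 272 CPM and the remaining epithelial clusters at 197 CPM, again not apart (exact permutation adjusted p = 0.269). Ly6c+ monocyte-like cells (73.3 ± 7.11 CPM) and goblet-like cells (68.9 ± 24.0 CPM) followed, above tumor epithelial-like cells (49.0 ± 19.7 CPM).

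The signalling receptor Il1r1 was highest in a small class, Il17a+ T-like cells, which carry γδ T-cell transcripts such as Trdc and Trdv4. There it ranged from 105 to 216 CPM over 8 tumors (median 156), against 13.1 to 28.5 CPM in regulatory T and T cell-like cells (median 18.3). The log2 difference was 2.91 ± 0.54 (SD), in 8 of 8 tumors (exact permutation adjusted p = 0.00977). Thinned shares were 14.1% and 1.80%, against 0.0155% in plasma cell-like cells.

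A small stromal cluster named fibroblast-like, which also scored high for endothelial and smooth muscle markers (Plvap was among its leading genes), held 140 CPM of Il1r1 when its 126 tumor cells were pooled. Tumor epithelial-like cells held 6.27 ± 2.33 CPM. Neutrophil-like clusters, in which the decoy was highest, held means of at most 0.316 CPM of Il1r1, with 2.61 CPM the highest value in a single tumor.

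Among the 18 classes compared, Il1rl1, which encodes the IL-33 receptor ST2, was highest in regulatory T and T cell-like cells, at 7.06 to 104 CPM (median 19.7). Neutrophil-like cells came next at 1.05 to 3.84 CPM. On the log2 scale the classes differed by 3.05 ± 0.86 (SD), in 10 of 10 tumors (exact permutation adjusted p = 0.00326). With finer clustering the highest class was regulatory T-like alone, at a mean of 74.98 CPM in place of 34.9 CPM, followed by Il17a+ T-like cells at 36.2 CPM. The difference to the next class was then 1.36 ± 0.93 (log2, SD), in 9 of 10 tumors (exact permutation adjusted p = 0.00732). The finer Il17a+ T-like cluster held 609 tumor cells, where the main class of this name held 339 tumor cells with 3 Il1rl1 UMIs. Innate lymphoid markers scored next highest in the finer cluster, after those of Il17a+ T cells. Which of its cells held the Il1rl1 UMIs was not tested. The 117 mast-like cells in tumors, whose textbook receptors include ST2, held 162 Il1rl1 UMIs, or 345 CPM pooled. This pooled level was above the mean of every ranked class, but no tumor held 20 mast-like cells, so they were not ranked.

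The share of each member's tumor UMIs by class combines these levels with the number of cells and their depth. Neutrophil-like cells held a mean of 97.2% of Il1f9 UMIs, 87.1% of Il1rap, 76.3% of Il1r2 and 47.2% of Il1b. Spp1+ macrophage-like cells held 63.6% of Il1a, 42.6% of Il1rn and 26.3% of Il1b. Tumor epithelial-like cells held 94.4% of Il33 and, although low in CPM, 47.6% of Il1r1, against 9.66% in Il17a+ T-like cells. Il1rl1 UMIs lay in regulatory T and T cell-like (54.8%), neutrophil-like (16.8%) and mast-like cells (14.0%).

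**Figure D3:**
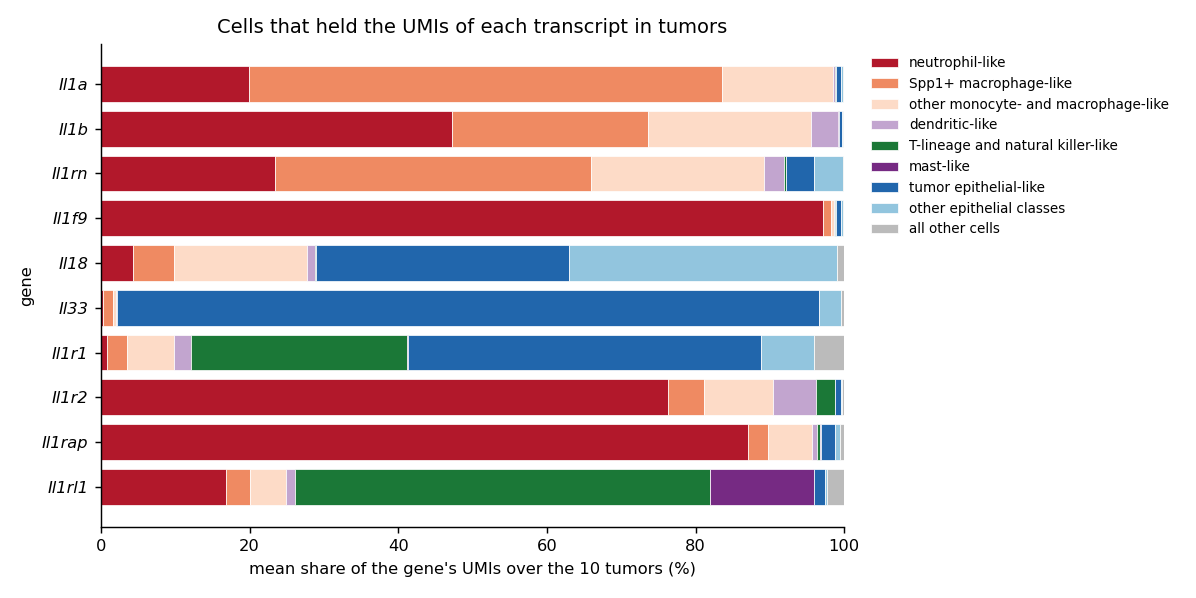
Mean share of each member's UMIs found in each group of cell classes over the 10 tumors, in percent; each bar adds to 100. UMIs of Il1a, Il1b, Il1f9 and the decoy Il1r2 lie mostly in neutrophil- and macrophage-like cells, those of Il33 in tumor epithelial-like cells and those of Il1rl1 in T-lineage cells.

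The tissues were next compared within epithelium, with UMIs summed over the epithelial clusters of each library. The mix of epithelial cells differed almost wholly. Tumor epithelial-like cells numbered 13538 in tumors and 21 in mucosa, absorptive-like cells 578 and 3366, and the remaining epithelial clusters 1992 and 9433. Cell mix and level per cell cannot be told apart in these sums. Of 9 members tested with edgeR, 6 were higher in tumors and 1 was lower, where 33.9% of 15506 genes were higher and 30.3% lower, and 46.3% did not overlap between the groups. The median log2 fold change was 6.34 over the members and 0.04 over all genes. The 8 neutrophil transcripts were all higher in these sums too, at 295 to 1097 CPM in tumors against 12.0, 97.3 and 28.5 CPM in mucosa, none of them at 0. The part of free neutrophil and macrophage RNA in the epithelial values of Il1a, Il1b, Il1f9, Il1r2 and Il1rn was not tested. Of 15 dissociation stress genes, 14 were higher (2146 to 5224 CPM against 967 to 1121 CPM).

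Il33 ranged from 9.36 to 24.2 CPM in tumor epithelium (median 15.1) against 0.0646, 0.216 and 0.0750 CPM in mucosal epithelium, with 4327 against 26 UMIs. The lowest tumor lay far above the highest mucosa library. In epithelial clusters with cells of both tissues, counts were few and the groups overlapped. Mean Il33 was 0.687 CPM in tumors and 0.641 CPM in mucosa in cluster 15 (remaining epithelium), from 31 and 6 UMIs. It was 0 and 0.0905 CPM in cluster 19 (goblet-like) and 4.37 and 0.268 CPM in cluster 22 (absorptive-like). Over the epithelial sums the log2 fold change of Il33 was 6.68 ± 0.42 (edgeR adjusted p = 1.05e-07), or 7.43 without mucosa 2.

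Il1rn ranged from 18.4 to 56.8 CPM in tumor epithelium (median 31.5) against 15.2, 12.2 and 9.02 CPM. No values overlapped, although the lowest tumor was close to mucosa 1, and the log2 fold change was 1.16 ± 0.35 (edgeR adjusted p = 0.00985). The call was lost without mucosa 3 (0.98, adjusted p = 0.0567) and without the 7 libraries that go against their sex label (0.59, adjusted p = 0.103). Il1rn had a mean of 9.04 CPM in B cell-like cells of tumors against 0.842 CPM in mucosa, and of 13.6 against 0.299 CPM in regulatory T and T cell-like cells.

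Il1r1 ranged from 2.90 to 9.02 CPM (median 5.39) against 11.1, 6.97 and 7.40 CPM, so the groups overlapped. Tumor means of Il1r1 were 0.980, 0.393 and 0.460 of the mucosa in animals A, B and C. Its log2 fold change of -0.95 ± 0.29 passed the test (edgeR adjusted p = 0.0118), was lost without mucosa 1 (-0.71, adjusted p = 0.0872) and was lost without the 7 libraries (-0.66, adjusted p = 0.218). Il18 ranged from 46.1 to 117 CPM (median 77.1) against 33.5, 52.5 and 49.5 CPM and did not pass the test (0.53 ± 0.31, edgeR adjusted p = 0.155). Il1rap did not pass either (0.30 ± 0.32, edgeR adjusted p = 0.428), but was called with doublets kept (1.40, adjusted p = 0.00496). Of the called members, Il1r1 was thus the one whose groups overlapped.

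Il1b ranged from 15.7 to 73.2 CPM in tumor epithelium (median 26.8) against 0, 0.338 and 0.0750 CPM, a log2 fold change of 7.53 ± 0.78 (9.23 without mucosa 2). Its level in tumor epithelium was of the size found in plasma cell-like (14.0 CPM), regulatory T and T cell-like (49.1 CPM) and B cell-like cells (106 CPM) of the same tumors. In tumor epithelial-like cells there were 0.206 Il1b UMIs for each S100a8 UMI, a neutrophil transcript, at the median, and in neutrophil-like cells 0.114. Too sparse to test, Il1rl1 had 21 UMIs in tumor epithelium, with 0 in 4 of the 10 tumors, and 0 in mucosal epithelium, so the groups overlapped.

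**Figure D4:**
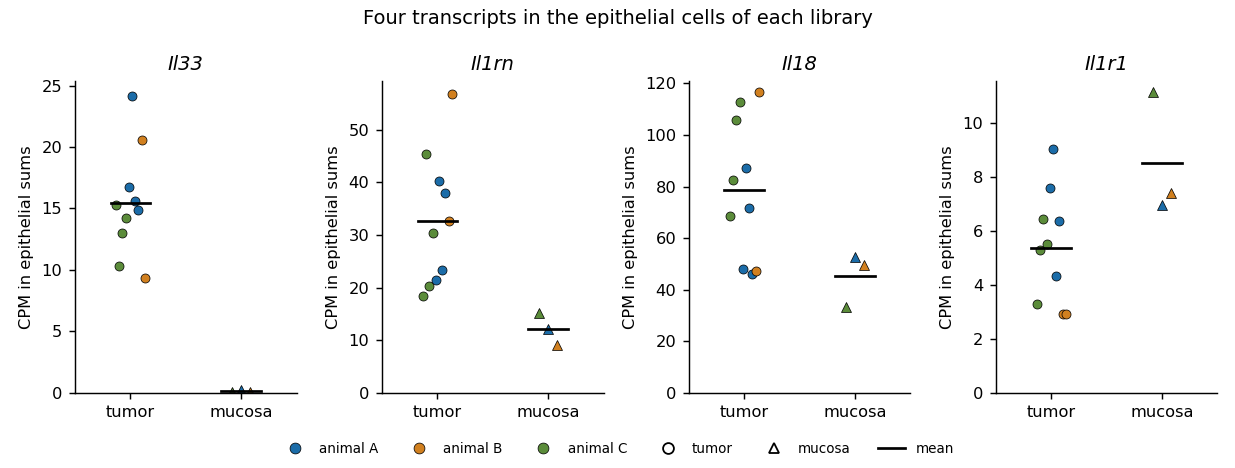
CPM of Il33, Il1rn, Il18 and Il1r1 in the epithelial sums of each library on linear axes from 0; circles are tumors, triangles mucosa, colors the animals and bars the means. Il33 is near 0 in all 3 mucosa libraries, Il1rn is higher in every tumor, and Il18 and Il1r1 overlap.

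Single classes found in both tissues were also compared. In absorptive-like cells, the mature surface cells of the colon, Il1rn ranged from 129 to 372 CPM over 9 tumors and from 24.3 to 62.3 CPM in mucosa, where 18.2% of genes were higher in tumors. The log2 fold change was 2.91 ± 0.43 (edgeR adjusted p = 4.38e-04). One of the 2 absorptive-like clusters held mucosa cells only. In the shared cluster 22, Il1rn was 129 to 372 CPM in tumors against 51.4 to 62.5 CPM in mucosa, still with no overlap. In absorptive-like cells the neutrophil transcript S100a8 was higher too, with means of 1737 and 50.9 CPM (5.28 ± 1.05, edgeR adjusted p = 0.0022), as were Il1a (7.29) and Il1b (7.25), and the part of free leukocyte RNA in Il1rn was not tested.

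In goblet-like cells, the mucus-secreting lineage, Il18 ranged from 46.0 to 115 CPM over 7 tumors against 21.6 to 34.8 CPM (1.33 ± 0.29, edgeR adjusted p = 0.0281), where 1.77% of genes were higher. S100a8 (means 143 and 0.723 CPM) and Il1b (55.5 and 0.0902 CPM) were called higher in these cells too, and their part was not tested. In enteroendocrine-like cells, where 0.972% of genes were higher, Il18 ranged from 41.5 to 267 CPM over 4 tumors against 16.6 to 34.9 CPM (2.89 ± 0.50, adjusted p = 0.0147), from 37 and 29 UMIs in 126 and 546 cells. S100a8 ranged from 125 to 12080 CPM in these cells of the 4 tumors, and its part was not tested. The class is not stable, since with finer clustering 19 tumor and 189 mucosa cells kept this name. With the animal as a block the call was lost (2.37, edgeR adjusted p = 0.254).

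In the remaining epithelial clusters, where 18.7% of genes were higher and 17.1% lower, Il18 (2.78 ± 0.35) and Il1rn (3.00 ± 0.24) were higher and Il1r1 was lower (-1.65 ± 0.43). S100a8 (means 170 and 0.653 CPM) and Il1b (32.0 and 0.0989 CPM) were called higher there as well, and the part of free leukocyte RNA was not tested. Tumor cells there lay mostly in cluster 15 and mucosa cells in clusters 11, 16, 23 and 24. Within cluster 15, Il18 was 129 to 397 CPM in tumors against 82.0 to 174 CPM, Il1rn 41.9 to 68.0 against 19.3 to 60.4 CPM, and Il1r1 0.517 to 6.99 against 3.78 to 6.48 CPM. All 3 overlapped within that cluster.

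Plasma cell-like cells are not a textbook source of IL-18, and there Il18 ran the other way. It was 1.70 to 9.64 CPM in tumors and 11.1 to 41.2 CPM in mucosa (-1.81 ± 0.43, edgeR adjusted p = 0.0061), where 12.5% of genes were lower in tumors. Thinned shares of these cells with an Il18 UMI were 0.503% in tumors and 2.40% in mucosa. The part of free epithelial RNA in this difference was not tested.

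In the T lineage, summed over its clusters, Il1r1, Il1r2 and Il1rl1 were higher in tumors, and Il1rap did not pass the test. With edgeR, 6 of 7 members tested were higher, where 20.6% of 10444 genes were higher and 20.7% lower. The median log2 fold change of the 7 was 4.90, or 4.76 with Il1a at its bound, against -0.01 over all genes. Intraepithelial T-like cells numbered 3976 in mucosa and 451 in tumors, so the mix of T cells differed. The 8 neutrophil transcripts summed to 134 to 873 CPM in tumor T cells against 5.51 to 16.7 CPM, with Csf3r and Cxcr2 at 0 in mucosa, and their part in the values of Il1a, Il1b, Il1rn and Il1r2 was not tested. All 15 dissociation stress genes were higher too (4161 to 5943 CPM against 1841 to 1964 CPM), and their part was not tested either.

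Il1r2 ranged from 53.3 to 157 CPM in tumor T cells (median 90.0) against 1.65, 1.01 and 1.39 CPM (6.14 ± 0.38). Il1r1 ranged from 16.0 to 34.1 CPM (median 27.1) against 6.61, 5.55 and 3.34 CPM (2.48 ± 0.25), opposite to its direction over all cells. Il1rl1 ranged from 5.99 to 71.1 CPM (median 17.3) against 1.28, 0.505 and 0.557 CPM (4.90 ± 0.82, or 5.65 without mucosa 1). Tumors and mucosa did not overlap for these 3 receptors, as for 29.9% of all genes. Il1rap overlapped, at 3.83 to 9.39 CPM against 5.14, 1.51 and 3.34 CPM (0.61 ± 0.33, edgeR adjusted p = 0.151), and was called without mucosa 1 (1.17, adjusted p = 0.0338) and with doublets kept (1.42, adjusted p = 0.00249). Il1a had 84 UMIs in tumor T cells against 0, at least 10.8-fold higher against a floor of 3 counts over the mucosa group.

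Within regulatory T and T cell-like cells alone, where 9.09% of genes were higher and 6.59% lower, Il1r2 was higher (56.7 to 166 CPM against 5.14 to 10.3 CPM; 3.75 ± 0.43, edgeR adjusted p = 3.72e-06). Il1r1 overlapped, at 13.1 to 28.5 CPM against a mean of 26.0 CPM and a highest value of 41.1 CPM (-0.06 ± 0.28, adjusted p = 0.98). Il1rl1 ranged from 7.06 to 104 CPM against 4.49 to 5.14 CPM and did not pass the test (2.78 ± 1.00, adjusted p = 0.0646). Of the 3 receptors higher in T cells as a whole, Il1r2 was the one called within this class. S100a8 (means 125 and 0.856 CPM, 7.62 ± 1.07), Il1b (1063 UMIs in tumors and 0 in mucosa) and Il1rn (4.41) were called higher there too, and the part of free neutrophil RNA in Il1r2 was not tested.

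The balance between members was compared as ratios of their UMIs in the same library, with an exact permutation test within animals over which library is the mucosa (75 assignments, smallest possible p = 0.0133). Antagonist per agonist, Il1rn per Il1b, was 0.0623 to 0.113 in tumors (median 0.0839) and 5.10, 1.91 and 2.38 in mucosa 1, 2 and 3. The log2 values differed by -5.10. Decoy per signalling receptor, Il1r2 per Il1r1, was 19.3 to 55.7 in tumors (median 40.9) and 0.0649, 0.102 and 0.0353 in mucosa, a log2 difference of 9.33. Il1a per Il1b was 0.0296 to 0.0717 in tumors against 0.0240, 0.00921 and 0.0242 in mucosa, a log2 difference of 1.61 (1.01 without mucosa 2). All 10 tumors lay beyond all 3 mucosa libraries in each ratio, and the exact permutation p and its adjusted value over the 3 ratios were 0.0133 for each. The sums cover all cells, so cell mix and RNA per cell cannot be told apart in these ratios. In mucosa, epithelial clusters held 2564 of 2627 Il1rn UMIs and 31 of 985 Il1b UMIs. In tumors, neutrophil-like cells held 76.3% of Il1r2 UMIs and tumor epithelial-like cells 47.6% of Il1r1 UMIs. The ratios restate fold changes given above and are no separate evidence.

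By class within tumors, Il1rn per Il1b had a median of 0.0403 in neutrophil-like, 0.142 in Spp1+ macrophage-like, 0.785 in tumor epithelial-like and 13.3 in absorptive-like cells. Transcripts were counted at their 3′ ends and not scaled by length, so a ratio is read between libraries or classes and not as a ratio of proteins. The lowest median was thus found in neutrophil-like cells.

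**Figure D5:**
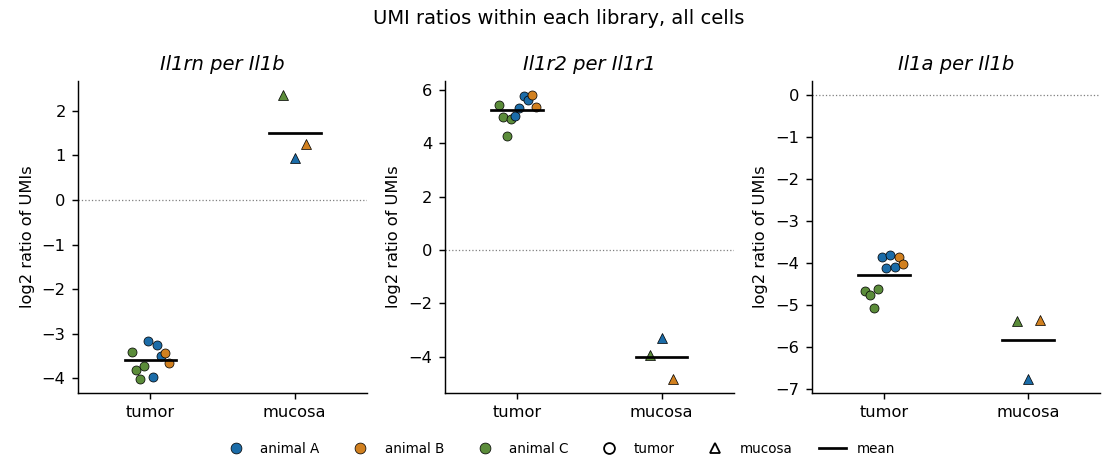
log2 ratio of UMIs of Il1rn to Il1b, Il1r2 to Il1r1 and Il1a to Il1b in the sum of all cells of each library; circles are tumors, triangles mucosa, colors the animals, bars the means and the dotted line an equal number of UMIs. Tumors lie below mucosa in the first ratio and above it in the second and the third.

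Genes that act with the members were read from lists. Of 17 target genes of IL-1 signalling in the all-cell sums, 16 were higher in tumors, where 36.3% of all genes were higher. The median log2 fold change of the 17 was 6.34, or 5.78 with Mmp3, at 0 in mucosa, at its bound. Ptgs2, the inducible prostaglandin synthase, rose from a mean of 0.0637 to 123 CPM, the chemokine Cxcl2 from 3.05 to 3505 CPM and Il6 from 0.0418 to 7.15 CPM. In epithelial sums 10 of 13 were higher and 2 were lower (median 3.98), where 33.9% of all genes were higher and 30.3% lower. There the neutrophil chemokine Cxcl5 was 19.5 to 258 CPM in tumors against a mean of 3.40 CPM in mucosa, and Saa3 (-1.90) and Sod2 (-0.56) were lower. The 8 neutrophil transcripts had a median log2 fold change of 8.74 over all cells and 6.37 in epithelium. The part of cell mix and of free leukocyte RNA in the target genes was not tested.

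Of 13 processing genes in the all-cell sums, 5 were higher and 4 lower (median 0.31). The sensors Nlrp3 (9.70) and Mefv (7.76) were higher, while Nlrp6 (-3.50), the adaptor Pycard (-1.74), the protease Casp1 (-1.37) and Nlrc4 (-0.33) were lower. In epithelial sums 4 of 12 were higher and 4 lower (median -0.09). These shares lay near those of all genes, 36.3% higher and 33.9% lower over all cells and 33.9% and 30.3% in epithelium.

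Of 21 adaptors and kinases, 17 were higher over all cells (median 1.14), and 11 higher and 2 lower in epithelium (median 0.54). Of 6 further family members tested over all cells, Il18rap (3.64), Il1rl2 (3.39), which encodes the IL-36 receptor, Il18r1 (1.89) and the ligand Il1f6 (1.58) were higher and Sigirr, an inhibitory receptor, was lower (-1.07), with a median of 1.74. In epithelium 1 of 5 was higher and 1 lower (median 0.37). Of all genes, 36.3% were higher and 33.9% lower over all cells, and 33.9% and 30.3% in epithelium. Log2 fold changes in these lists are from edgeR. By class, Il18r1, a chain of the IL-18 receptor, was higher in natural killer-like cells of tumors (168 to 319 CPM against a mean of 71.0 CPM, 1.59 ± 0.27, edgeR adjusted p = 8.69e-05), where 17.0% of genes were higher. S100a8 (405 UMIs in tumors and 0 in mucosa) and Il1b (118 and 0) were called higher in these cells too, and their part was not tested.

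Among the tumors, animals were compared with edgeR, where 1.46% of 17360 genes differed. Il1rap was the 1 member called, with means of 65.7, 49.2 and 35.6 CPM in animals A, B and C (edgeR adjusted p = 0.0412). Il1f9 was 87.9, 71.9 and 32.6 CPM (adjusted p = 0.0543), while Il1b was 2325, 2821 and 2258 CPM (adjusted p = 0.755). Age is tied to the animal. Leaving out each tumor in turn gave 0 to 2 members called.

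The genes most like each member were ranked by Pearson correlation of log2 levels over the 18 cell classes, among 9240 genes, as a description, since the classes share libraries and depth. Il1b was closest to Ptafr (r = 0.99) and Mcemp1, Il1f9 to Stfa3 (0.98), G0s2 and Cxcr2, and Il1rap to Nfe2 (0.95). Il1a was closest to Gpr84 (0.95), Hmox1 and Cxcl2. Il33 was closest to Pnliprp2 (0.98), Il1rl1 to Foxp3 (0.92), the regulatory T-cell transcription factor, and Il1r1 to Gldc (0.94), with Il17f (0.92) among its first 5.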

How the data were processed

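The authors aligned reads and counted UMIs with Cell Ranger (version 6.0.0 and build mm10 per the submitters' processing notes, while the study's methods name another version) and deposited unnormalized UMI counts per gene and barcode of each library. The annotation release is not given in the sources used here. Gene positions are from GENCODE on mm10.

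Barcodes were kept with at least 500 UMIs, 200 genes and at most 25% mitochondrial UMIs, and the highest doublet scores (0.8% per 1000 barcodes) were removed. Of 137591 barcodes, 7797 failed on genes, 10902 on mitochondrial UMIs and 10397 as doublets, leaving 108495 cells. Cells were clustered (2000 variable genes without members and pathway genes, 30 components, 20 neighbors, Leiden resolution 1), giving 37 clusters in 24 classes by marker lists, with naming thresholds set after profiles were seen. A class joined from clusters close to 2 marker lists bears both names.

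UMIs were summed per library and tested with edgeR 4.0.16 (TMM, filterByExpr, quasi-likelihood F test, Benjamini-Hochberg), after a check on simulated data. An SE beside an edgeR log2 fold change is its absolute value divided by the square root of F, and not an output of the fit. Class levels were compared on log2(CPM + 1), and ratios had 0.5 UMI added. Members and lists were chosen with earlier results of these data known. All members are named, and of the other lists some of the genes past the threshold, which are not always those with the largest change.

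Each library was a sample, and tumors of 1 animal share it, so p-values measure the spread between these samples. The animal codes in the labels pair tumors with mucosa. Deviations of tumors and mucosa from their group means correlated within animals A, B and C at r = 0.117, 0.0319 and 0.103 (all cells) and 0.156, 0.102 and 0.204 (epithelium). Fits with the animal as a block, other size factors, DESeq2, other filters, finer clustering and left-out libraries were alternatives. Leaving out 7 libraries against their sex label was added after seeing the data.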

Additional observations from a re-analysis of the deposited data

Results flagged for a closer look

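In all, 3 values stood apart from the other tumors by Dixon's test, in 30 groups tested, of which chance gives about 1 in 20. Tumor 9 had 9.59 CPM of Il1a in its epithelial sum, where the other 9 tumors ranged from 0.556 to 4.61 CPM. The same tumor had 73.2 CPM of Il1b there, against 15.7 to 45.5 CPM in the others. Tumor 6 had 34.5 CPM of Il33 in tumor epithelial-like cells, against 14.7 to 22.9 CPM in the others. The cause of these values was not tested.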

How the results depend on the processing

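Over all cells, 8 members higher was the count under every alternative run, and 1 member lower under each except without the 7 libraries that go against their sex label, where 0 were lower. In epithelium these libraries also left 0 members lower and 4 higher. Il18 over all cells, never called, turned to -0.0142 without mucosa 1 and to -0.0398 without the 7 libraries, with 0.364 the highest value on leaving out 1 library (mucosa 2). Without them Il1f9 in epithelium (4.89, adjusted p = 0.0613) and Il1a (5.38, adjusted p = 0.0826) and Il1rn (3.77, adjusted p = 0.0855) in the T lineage also lost their edgeR calls, with 1 mucosa library left. Between animals, DESeq2 called 4 members and edgeR 1, with the share of all genes given for edgeR only. Leaving out each library in turn gave 8 to 8 members higher and 1 to 1 lower over all cells, 5 to 6 higher and 0 to 1 lower in epithelium, 5 to 8 called in the T lineage, 0 to 2 between animals and 8 to 9 with a highest class that stood apart. The log2 differences of ratios ranged from -5.44 to -4.60 (Il1rn per Il1b), 8.78 to 9.62 (Il1r2 per Il1r1) and 1.01 to 2.11 (Il1a per Il1b). Without mucosa 1 or mucosa 2 their exact permutation adjusted p was 0.0667, since too few assignments remain for a smaller one. With the animal as a replicate block, 8 members were higher and 1 lower over all cells and 6 higher and 1 lower in epithelium, 7 in place of 6 were called in the T lineage and 20 in place of 19 over single classes, where Il18 in enteroendocrine-like cells was lost and Il1rn in plasma cell-like cells (3.56, edgeR adjusted p = 0.0445) and Il1r2 in absorptive-like cells (6.86, adjusted p = 0.0178, tested only there) were gained. The counts over single classes have no share of all genes beside them, and in the main fits Il1b was called in each class where it was tested. With doublets kept, Il1rap was called in epithelium (1.40, adjusted p = 0.00496) and in the T lineage (1.42, adjusted p = 0.00249). The cause of these changes was not tested. With 3 mucosa libraries, 15 Il1a, 12 Il1f9 and 20 Il1rl1 UMIs in all mucosa limit how precisely their fold changes are known.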

Other observations

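The cluster named fibroblast-like, which also scored high for endothelial and smooth muscle markers, held 12 Il33 UMIs in 126 tumor cells and 3 in 10 mucosa cells, or 17.0 and 175 CPM pooled, from too few cells to compare. In the same cluster Il1rl1 had 17 UMIs in tumors and 0 in mucosa. Of 40 Il17a+ T-like cells in mucosa, pooled, Il1r1 held 18 UMIs, or 142 CPM, beside 145 CPM in the 339 tumor cells pooled, with no mucosa library holding 20 such cells.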
